A study of Homo sapiens with 6 samples.

Results

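The 7 neuronal genes NEFL, NEFM, PRPH, GAP43, SCG2, CHGB and ELAVL4 were followed in IMR32 cells given the compound sAKZ692 or its solvent DMSO. All 7 symbols were present among the 11351 genes of the deposited table. They had been chosen on this contrast itself, for higher values with sAKZ692, so their treatment differences are given as a description and carry no test. IMR32 is an established human neuroblastoma line, a tumour line of the sympathetic nervous system, grown here in serum-containing medium. One group received DMSO for 24 h and the other 20 µM sAKZ692 for 24 h, with 3 libraries each. The series' design text calls sAKZ692 a small-molecule activator of NRF2, the transcription factor of the antioxidant response. Nothing in the labels says whether replicates were separate cultures, so any p-value measures the spread between these samples, which may be technical. Values are TPM, transcript abundances scaled per transcript length and to a fixed library total, so that levels of different genes can be set side by side. The labels give a depth of 20000000 reads per sample, but how many reads lie behind a TPM value is unknown.

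Neurofilaments are the intermediate filaments of the axon, in which the light chain NEFL and the medium chain NEFM assemble together. Peripherin, the product of PRPH, is the filament protein typical of peripheral and sympathetic neurons. GAP43 is a membrane-bound protein of the growing axon tip. SCG2 (secretogranin II) and CHGB (chromogranin B) are granins, acidic proteins that pack the dense-core granules from which neuroendocrine cells release peptides and amines. ELAVL4, also called HuD, is a neuronal RNA-binding protein that binds AU-rich elements and stabilises messenger RNAs, that of GAP43 among them. All are used as signs of neuronal differentiation in neuroblastoma cells.

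The promoter windows are shown because the genes were higher together in the treated cells. RefSeq windows of the GRCh38.p14 build, running from 250 bases before to 50 after an annotated start, were matched for PRPH, GAP43 and ELAVL4. SCG2 and CHGB had no entry in the table used here, and no window of NEFL or NEFM was examined. The PRPH window is chr12:49294897-49295196, that of GAP43 is chr3:115623260-115623559, and the first of 7 listed for ELAVL4 is chr1:50109583-50109882, all on the + strand. Capitals mark matches, on either strand, to TATAAA (the TATA box core), CCAAT, TGACGTCA (the cAMP response element), TGANTCA (the AP-1 site), TGACNNNGC (the core of the antioxidant response element bound by NRF2) or GGGCGG (the GC box).
PRPH: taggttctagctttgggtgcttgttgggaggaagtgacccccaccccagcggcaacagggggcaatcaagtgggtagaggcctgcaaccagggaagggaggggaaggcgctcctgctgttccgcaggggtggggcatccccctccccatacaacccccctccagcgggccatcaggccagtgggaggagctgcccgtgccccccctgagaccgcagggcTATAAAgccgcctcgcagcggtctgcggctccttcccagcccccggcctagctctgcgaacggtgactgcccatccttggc
GAP43: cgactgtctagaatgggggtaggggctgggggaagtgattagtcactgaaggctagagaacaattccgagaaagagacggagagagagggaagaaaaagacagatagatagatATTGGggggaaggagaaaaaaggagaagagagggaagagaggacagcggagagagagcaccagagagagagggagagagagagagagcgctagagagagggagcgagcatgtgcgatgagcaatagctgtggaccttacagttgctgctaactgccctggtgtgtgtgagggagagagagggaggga
ELAVL4: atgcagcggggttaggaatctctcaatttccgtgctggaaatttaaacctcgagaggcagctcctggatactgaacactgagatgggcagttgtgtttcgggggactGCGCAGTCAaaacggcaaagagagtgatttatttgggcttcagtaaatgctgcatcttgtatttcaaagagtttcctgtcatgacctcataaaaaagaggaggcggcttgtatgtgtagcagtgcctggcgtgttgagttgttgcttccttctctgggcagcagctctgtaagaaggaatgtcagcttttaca

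The window of PRPH held 1 TATAAA, which begins at base -31 from the start, a motif found in 11.6% of the 34943 promoter windows of the same length. That of GAP43 held 1 CCAAT match, on the other strand, a motif found in 34.65% of windows. The ELAVL4 window shown held 1 match to TGACNNNGC, again on the other strand, found in 13.3% of windows, and the other 6 ELAVL4 windows held none. It was shown as the first listed, and 4 of the 7 ELAVL4 windows held CCAAT, the motif of the GAP43 window. CANNTG, the E-box, which is not capitalised, was found in each window shown and in 68.7% of all windows. Neither TGACGTCA (1.84% of windows), TGANTCA (7.72%) nor GGGCGG (44.9%) was found in any of the 9 windows of PRPH, GAP43 and ELAVL4. A match describes the letters of a window and does not show that a factor binds there.

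In solvent the 7 genes covered a wide range of levels. ELAVL4 was at 256.8, 257.5 and 235.4 TPM in DMSO replicates 1, 2 and 3 and ranked 399 of the 11351 genes by mean level. NEFM, at 28.2 ± 1.56 TPM (SD, n = 3), and CHGB, at 26.3 ± 0.977 TPM, followed, and their libraries overlapped. Below them came SCG2 at 21.1 ± 1.53 TPM, NEFL at 12.5 ± 1.09 TPM, PRPH at 8.05 ± 0.0482 TPM and GAP43 at 2.12 ± 0.291 TPM, each with no library overlapping the next gene in the order. All 7 reached the minimum mean of 1 TPM used for testing, and all did so in the DMSO libraries alone.

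With sAKZ692 every one of the 7 genes was higher in all 3 treated libraries than in any DMSO library. Among all 9137 genes tested, 35.9% showed this pattern, and since the members were chosen for being higher nothing is read from their count. In bulk RNA a larger share of cells that make a transcript and more of that transcript per cell cannot be told apart. The summed level of the 7 genes was 354.7, 356.4 and 333.5 TPM in the DMSO libraries and 643.0, 629.3 and 964.9 TPM in sAKZ692 replicates 1, 2 and 3.

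**Figure D1:**
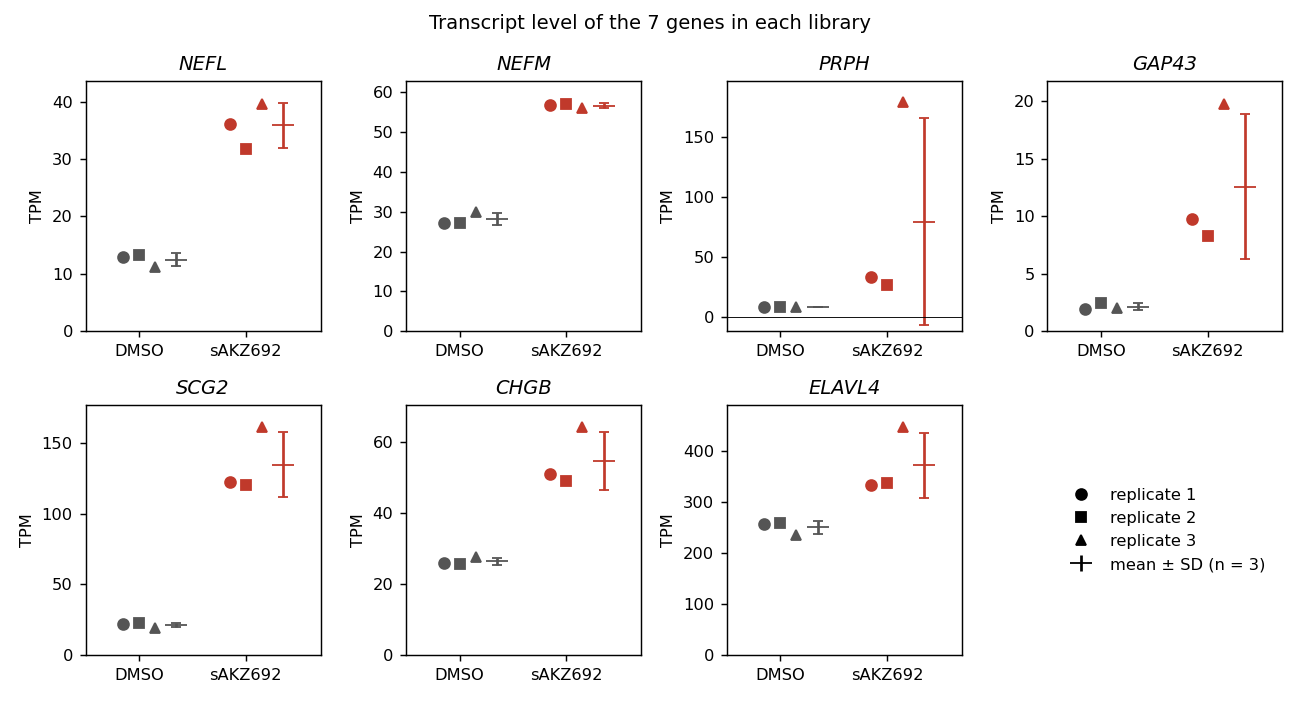
TPM (vertical axes, each starting at or just below 0) of the 7 genes in the 3 DMSO (grey) and 3 sAKZ692 (red) libraries, with replicate numbers as symbols and the mean ± SD (n = 3) beside them. Treated libraries lie above all DMSO libraries for each gene, and PRPH in sAKZ692 replicate 3, at 178.8 TPM, lies far above replicates 1 and 2.

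The neurofilament chains had the most even values between treated libraries. NEFL was at 13.0, 13.2 and 11.2 TPM in DMSO replicates 1, 2 and 3 and at 36.1, 31.8 and 39.6 TPM with sAKZ692, a ratio of means of 2.88 and a log2 fold change of 1.45 on log2(TPM + 1). NEFM was at 27.3, 27.3 and 29.98 TPM and at 56.8, 57.2 and 56.0 TPM, a ratio of 2.01. Its 3 treated libraries differed by about 1% (coefficient of variation 1.05%), against 10.9% for NEFL. The medium chain was the more abundant in every library, but the ratio of NEFM to NEFL was 2.11, 2.07 and 2.67 in the DMSO libraries and 1.573, 1.798 and 1.413 with sAKZ692, without overlap.

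PRPH did not follow the neurofilament chains. It was at 8.1, 8.0 and 8.06 TPM with DMSO, the tightest of the 7 genes, and at 33.0, 26.7 and 178.8 TPM with sAKZ692. The ratio of means was 9.87, while replicates 1 and 2 alone gave 3.71 and replicate 3 alone 22.2 times the DMSO mean. Relative to the sum of NEFL and NEFM, peripherin transcript was at 0.201, 0.198 and 0.196 in the DMSO libraries, at 0.355 and 0.300 in treated replicates 1 and 2, and at 1.87 in replicate 3. Only 19 of the 9137 genes tested, PRPH included, had a ratio of replicate 3 to the mean of replicates 1 and 2 as high as its 5.99.

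GAP43, the growth cone gene, was the least abundant of the 7 in every library. It was at 1.89, 2.45 and 2.02 TPM in the DMSO libraries and at 9.72, 8.24 and 19.8 TPM in the treated ones. Replicate 3 again stood highest, at 9.33 times the DMSO mean against 4.59 and 3.89 times for replicates 1 and 2. Because its solvent level is low, the fold change depended on the constant added before taking logarithms, with log2 values of 2.03 with a pseudocount of 1 and 2.41 with 0.1.

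Of the granins, SCG2 showed the larger difference. It was at 21.8, 22.3 and 19.4 TPM with DMSO and at 122.9, 120.3 and 161.2 TPM with sAKZ692, a ratio of means of 6.37 and the fourth largest log2 fold change among the 9137 genes. CHGB was at 25.8, 25.7 and 27.5 TPM and at 51.1, 49.0 and 64.1 TPM, a ratio of 2.08. The order of the granins was therefore opposite in the groups, with SCG2 at 0.842, 0.866 and 0.706 times CHGB in solvent and at 2.41, 2.46 and 2.51 times CHGB in treated cells. Unlike PRPH, this ratio was nearly the same in all 3 treated libraries.

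ELAVL4 had the smallest relative difference and the highest level. Its treated libraries were at 333.4, 336.1 and 445.4 TPM, a ratio of means of 1.49. It supplied 72.4%, 72.2% and 70.6% of the summed TPM of the 7 genes in the DMSO libraries and 51.9%, 53.4% and 46.2% in the treated ones. In the treated libraries the order below ELAVL4 changed, with SCG2 next in replicates 1 and 2 and PRPH next in replicate 3.

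**Figure D2:**
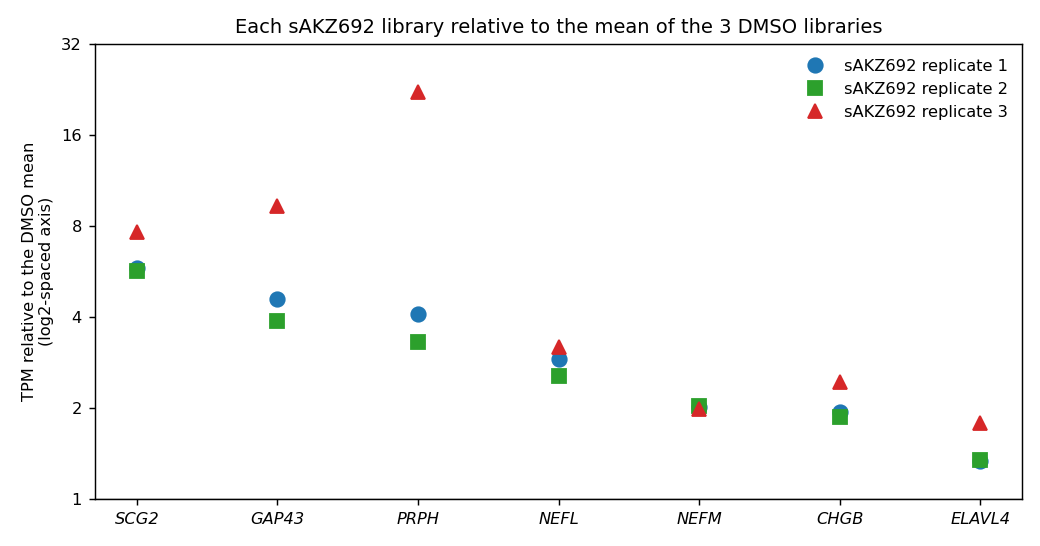
Each sAKZ692 library relative to the mean of the 3 DMSO libraries, as a ratio of TPM (vertical axis, log2-spaced) for the 7 genes. Replicates 1 and 2 lie close together for every gene, NEFM is the same in all 3 libraries, and replicate 3 reaches 22.2 for PRPH and 9.33 for GAP43.

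Treated replicate 3 was the highest treated library for 6 of the 7 genes, NEFM being the exception. That library stood apart across the transcriptome as well. On log2(TPM + 1) it correlated with treated replicates 1 and 2 at Pearson's r = 0.971 and 0.972 across genes, which are not independent replicates, against 0.992 between those. Its listed genes summed to 65.9% of the TPM scale, against 61.2% to 61.9% in the other libraries, and the median gene was at 0.997 times the mean of replicates 1 and 2. Without replicate 3 the log2 fold change was 1.76 for PRPH and 1.68 for GAP43, against 2.61 and 2.03 with it. For NEFL it was then 1.38 against 1.45, for SCG2 2.47 against 2.61, for CHGB 0.90 against 1.02 and for ELAVL4 0.42 against 0.56, and for NEFM it was 0.99 against 0.98.

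Related genes were examined in lists built around the members, and here the test was limma over all 9137 genes with Benjamini-Hochberg adjustment and a threshold of 0.05. It placed 24.1% of all tested genes higher and 8.5% lower with sAKZ692, and the counts that follow are read against these shares. Of the calls 73.9% were thus higher, while median-ratio scaling gave 41.5% and quantile normalization 47.5%. The median log2 fold change of all genes was 0.14 as deposited and -0.03 under either scaling. The lists, like the members, were chosen with earlier results of these data known. A share above that of all genes can therefore follow from the choice of genes.

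Other intermediate filament genes did not move as one. Of 7 tested, LMNA and SYNM (28.6%) were called higher, LMNB1 and LMNB2 (28.6%) lower, and 3 were not past the threshold. Over all genes the shares were 24.1% higher and 8.5% lower. LMNB1 and LMNB2, which encode the B-type lamins of the nuclear envelope, both fell. LMNB1 went from 232.1 ± 11.3 TPM in solvent down to 140.1 ± 31.2 TPM and LMNB2 from 139.8 ± 4.39 down to 102.9 ± 8.38 TPM (SD, n = 3; limma adjusted p = 0.0076 and 0.0059). LMNA, the A-type lamin gene, was at 10.8 ± 1.19 TPM in solvent and 24.1 ± 9.54 TPM in treated cells, and SYNM (synemin) at 3.74 ± 0.0766 and 5.795 ± 0.547 TPM (limma adjusted p = 0.016 for each). Both calls were lost after quantile normalization (adjusted p = 0.0512 for LMNA and 0.495 for SYNM, whose log2 fold change went from 0.52 to 0.12) and without single DMSO libraries, that of LMNA without replicate 2 or 3 (up to 0.067) and that of SYNM without any 1 of them (up to 0.063). Without DMSO replicate 1 the list thus had 1 gene called higher, and without DMSO replicate 2 or 3 it had 0. The median log2 fold change of the list was 0.13, beside 0.14 over all genes.

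The other filament genes of nerve cells and their precursors were not called. INA (alpha-internexin, a neurofilament partner) had 115.1, 119.1 and 110.2 TPM in the DMSO libraries and 122.2, 124.4 and 170.1 TPM in the treated ones (limma adjusted p = 0.16). NES (nestin, the filament of neural progenitors) was at 62.5, 64.3 and 59.3 TPM and at 57.5, 55.2 and 40.4 TPM (adjusted p = 0.13; after median-ratio scaling its log2 fold change was -0.47 and adjusted p = 0.030). VIM (vimentin) was at 668.9, 687.4 and 647.1 TPM and at 566.2, 520.2 and 1334 TPM (adjusted p = 0.77; log2 fold change 0.13, and -0.05 after median-ratio scaling), so that it lay below all DMSO libraries in treated replicates 1 and 2 and above them in replicate 3. Without replicate 3 it was called lower, with a log2 fold change of -0.30 (adjusted p = 0.0014). NEFH, the heavy neurofilament chain, was not found under that symbol in the deposited table and so was not analysed here.

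**Figure D3:**
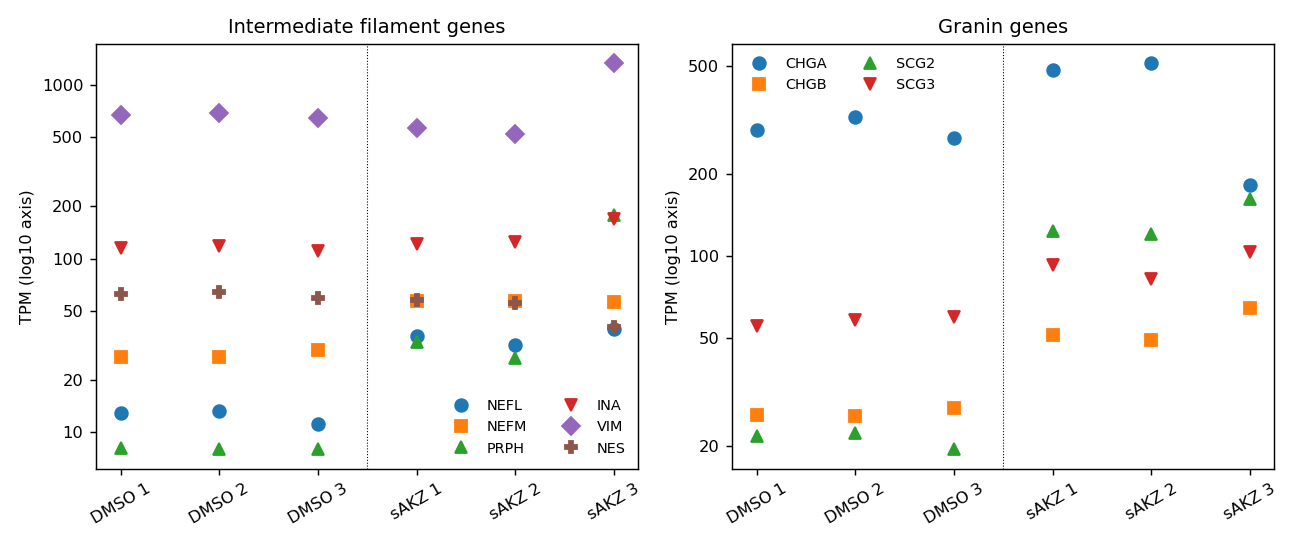
TPM (log10 axes) of 6 intermediate filament genes (left) and 4 granin genes (right) in each library, with DMSO to the left of the dotted line and sAKZ692 to the right. In sAKZ692 replicate 3 PRPH, INA and VIM are high and CHGA is low, at 182.9 TPM, while SCG2, CHGB and SCG3 are above all DMSO libraries in every treated library.

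Among 13 tested genes of the dense-core granule, 8 (61.5%) passed as higher and 1 as lower, and 4 did not pass, with a median log2 fold change of 0.67. The shares over all genes were 24.1% higher and 8.5% lower, and the difference between the shares was not tested. CPE, a carboxypeptidase that trims prohormones, rose from 55.5 ± 1.95 TPM in solvent to 100.6 ± 11.5 TPM (SD, n = 3; limma adjusted p = 0.0012). PCSK1N, the proSAAS granin-like inhibitor of a prohormone convertase, rose from 124.1 ± 5.002 to 214.8 ± 18.9 TPM (0.00094), and SCG3 (secretogranin III, which binds granins to the granule membrane) from 57.6 ± 2.11 to 92.7 ± 10.6 TPM (0.0025). NUCB2, the nesfatin precursor, rose from 26.2 ± 2.36 to 42.5 ± 5.37 TPM (0.0054). These 4 and SYT7 were called in every alternative run. The list had 5 genes higher without DMSO replicate 2 or 3, 5 after quantile normalization and 10 without sAKZ692 replicate 3. GAL, the galanin gene, was the 1 called lower, at 182.4 and 152.9 TPM, a call lost without any 1 library other than sAKZ692 replicate 3 (adjusted p up to 0.11).

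CHGA, the third major granin, was not past the threshold (limma adjusted p = 0.58). It was at 290.9, 323.0 and 271.5 TPM with DMSO and at 484.6, 511.3 and 182.9 TPM with sAKZ692. Treated replicates 1 and 2 thus lay above all DMSO libraries and replicate 3 below them, the opposite of VIM, while PRPH lay above the DMSO libraries in all 3. Without replicate 3 CHGA was called higher, with a log2 fold change of 0.76 (adjusted p = 5.88e-05). Relative to the sum of CHGB and SCG2, CHGA was at 6.11, 6.73 and 5.79 in the DMSO libraries and at 2.79, 3.02 and 0.812 in the treated ones. VGF, SCG5 and PCSK1 were not found under those symbols in the deposited table and so were not analysed here.

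In the growth cone and neurite list, 10 of 21 genes (47.6%) were called higher, 2 (9.5%) lower and 9 not past the threshold. The shares over all genes were 24.1% and 8.5%, and the median log2 fold change of the list was 0.33. MAPT, which encodes the axonal microtubule protein tau, rose from 18.0 ± 1.697 TPM to 88.3 ± 39.4 TPM (SD, n = 3; limma adjusted p = 0.0017), the treated values being 68.7, 62.5 and 133.6 TPM. FEZ1, an adaptor of kinesin transport in axons, rose from 8.95 ± 0.495 to 29.4 ± 2.60 TPM (0.00031), the beta-tubulin gene TUBB2A from 84.0 ± 4.37 to 148.2 ± 15.3 TPM (0.0012), and UCHL1, an abundant neuronal ubiquitin hydrolase, from 756.0 ± 12.1 to 1455 ± 182 TPM (0.00089). These 4, MAP2 and KIF5C were called in every alternative run.

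The count of this list leaned on single libraries and on the scaling. After median-ratio scaling 6 were higher and 5 lower, and without DMSO replicate 3 the list had 6 higher. The 2 called lower, MARCKS and MARCKSL1, encode growth cone membrane proteins regulated by protein kinase C, as GAP43 is. Both calls were lost without any 1 library other than sAKZ692 replicate 3, with adjusted p up to 0.15, while without that replicate 6 genes of the list were lower. BASP1, another protein of the same membrane class, had means of 343.5 ± 10.6 TPM in solvent and 367.9 ± 49.9 TPM in treated cells (adjusted p = 0.51). STMN2 was not found under that symbol in the deposited table and so was not analysed here.

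Of the neuronal RNA-binding list, 6 of 14 genes (42.9%) were called higher and 1 (7.1%) lower, beside 24.1% and 8.5% of all genes. The other 7 were not past the threshold, and the median log2 fold change of the list was 0.46. NOVA2, a neuronal splicing factor, and the 5 tested CELF genes of the list (CELF2 to CELF6), which encode splicing and translation regulators, made up the 6. NOVA2 rose from 2.94 ± 0.126 TPM to 9.76 ± 3.49 TPM (SD, n = 3; limma adjusted p = 0.0033). CELF5 rose from 2.04 ± 0.372 to 10.1 ± 0.970 TPM, CELF3 from 38.1 ± 0.148 to 97.1 ± 29.3 TPM, CELF4 from 2.55 ± 0.308 to 8.79 ± 2.44 TPM and CELF6 from 2.70 ± 0.225 to 6.26 ± 0.502 TPM (SD, n = 3; limma adjusted p between 0.00044 and 0.0025). PTBP1, a repressor of neuronal exons, was the gene called lower, with a log2 fold change of -0.41 (adjusted p = 0.0052). All 7 calls of this list were kept in every alternative in which the gene was tested, and without sAKZ692 replicate 3 the list had 10 higher and 2 lower.

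ELAVL1 (HuR), the ubiquitous relative of ELAVL4, did not pass. Its values were 68.8, 63.5 and 60.9 TPM in the DMSO libraries and 58.5, 61.2 and 64.2 TPM in the treated ones (limma adjusted p = 0.51), and after median-ratio scaling its log2 fold change was -0.25 (adjusted p = 0.033). ELAVL2 and ELAVL3 were not found under those symbols in the deposited table and so were not analysed here. As ELAVL4 binds AU-rich elements, the pentamer ATTTA was counted in 3′ UTRs of GENCODE release 29, taking the longest per gene. It occurred in 6 of the 7 members, PRPH having none, against 73.0% of 8585 tested genes with such a UTR. SCG2 had 3 in 492 bases, or 6.10 per kb, ELAVL4 had 9 in 2611 bases, or 3.45 per kb, and CHGB 1 in 315 bases, or 3.17 per kb, while the median gene had 1.64 per kb. NEFM had 1 in 495 bases, or 2.02 per kb, GAP43 1 in 611 bases, or 1.64 per kb, and NEFL 3 in 2353 bases, or 1.27 per kb. Which isoforms these cells use is not known from a table of genes.

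**Figure D4:**
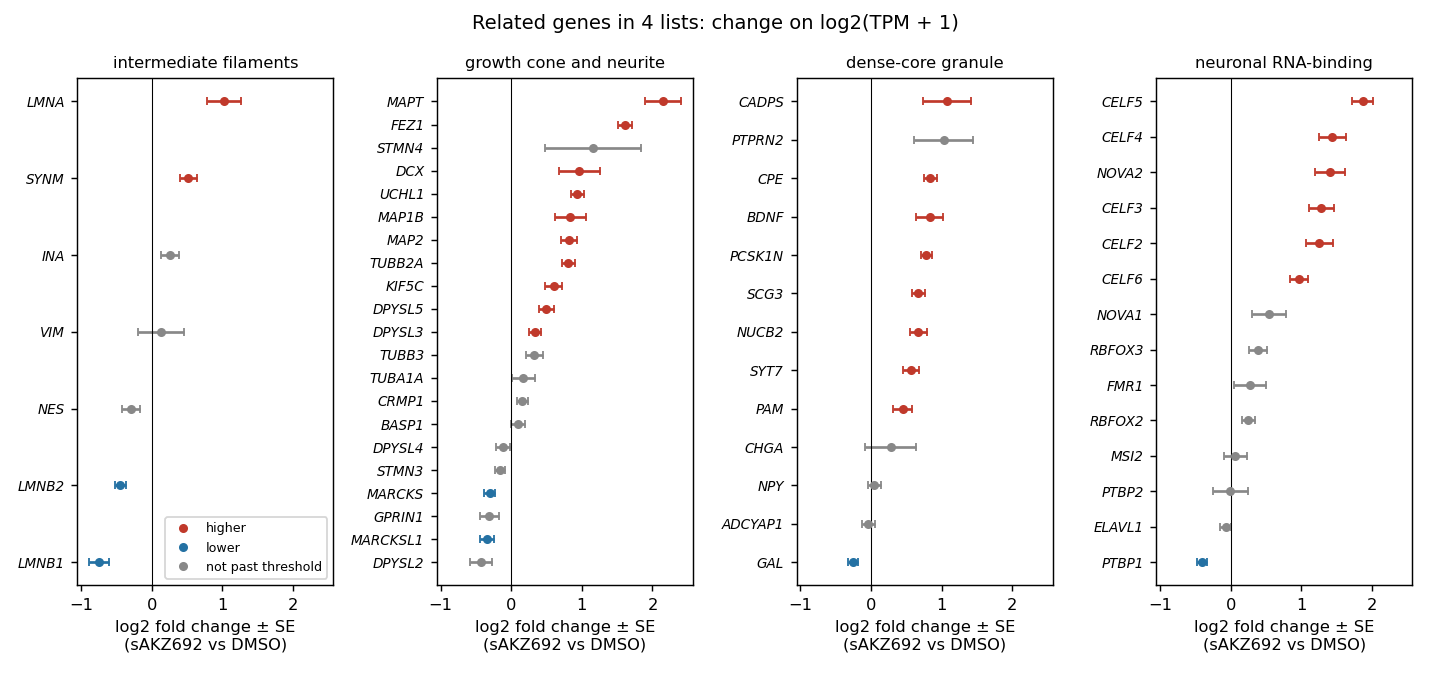
Log2 fold change ± SE on log2(TPM + 1) (horizontal axes) of every tested gene in the 4 lists closest to the members, from limma on 3 libraries per group. Red marks genes called higher, blue genes called lower and grey those past no threshold, with 8 of 13 dense-core granule genes and 6 of 14 RNA-binding genes in red. Of all tested genes 24.1% were called higher and 8.5% lower.

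Among 14 tested regulators linked to these genes, 3 (21.4%) passed as higher and 2 (14.3%) as lower, beside 24.1% and 8.5% of all genes, with a median log2 fold change of -0.05. REST, the repressor that keeps neuronal genes silent outside neurons, had 10.7, 8.83 and 7.605 TPM in the DMSO libraries and 8.61, 8.34 and 7.47 TPM in the treated ones (limma adjusted p = 0.50), and after quantile normalization its log2 fold change was -0.43 (adjusted p = 0.042). KLF7, a factor that promotes axon growth, rose from 14.4 ± 0.672 to 24.5 ± 2.15 TPM (SD, n = 3; adjusted p = 0.0021). KLF9, which restrains axon growth in rodent neurons, rose from 2.32 ± 0.380 to 5.28 ± 0.506 TPM (0.0037). STAT3 and KLF4 had log2 fold changes of 0.33 and -0.76, and both calls were lost without any 1 library other than sAKZ692 replicate 3 (highest adjusted p 0.0955 and 0.11). Median-ratio scaling also ended that of STAT3 (log2 fold change 0.15, adjusted p = 0.24). NEUROD1, a neurogenic factor, was the other gene called lower, at 163.4 ± 1.54 TPM in solvent and 116.4 ± 26.7 TPM in treated cells (limma adjusted p = 0.044), and its call was lost without any 1 DMSO library and after quantile normalization (highest adjusted p 0.12). The list had 0 genes lower without any 1 DMSO library, 1 without sAKZ692 replicate 1 or 2, and 4 without replicate 3.

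MYCN, an oncogene typical of neuroblastoma, was among the abundant transcripts of both groups, at 1347 to 1430 TPM with DMSO and 1376 to 1539 TPM with sAKZ692. Of 14 tested noradrenergic genes, GCH1 and TBX2 (14.3%) were called higher and 0 lower, beside 24.1% and 8.5% of all genes. GCH1, which supplies the cofactor of tyrosine hydroxylase, rose from 14.9 ± 0.638 to 25.9 ± 5.31 TPM (SD, n = 3; limma adjusted p = 0.0100). The call of TBX2 was lost without any 1 library other than sAKZ692 replicate 3 (up to 0.14), which left 1 gene called, and without that replicate 4 were higher and 1 lower. Single genes of this list went both ways in that replicate. TH, HAND1, DDC and SLC6A2, none of them called, were at their highest there, at 5.245, 50.4, 70.8 and 82.6 TPM. INSM1 and CHRNA3, also not called, were at their lowest there, at 29.99 and 129.4 TPM. GCH1 and TBX2 lay below treated replicates 1 and 2 there, at 19.75 and 88.5 TPM.

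Of the 18 listed markers of the mesenchymal state of neuroblastoma cultures, 7 had values. Their summed level was 999.2 to 1043 TPM in the DMSO libraries and 908.7, 854.5 and 1702 TPM in sAKZ692 replicates 1, 2 and 3, of which VIM made up most. THY1 and IL13RA1 were called higher of 6 tested (33.3%, beside 24.1% of all genes), with log2 fold changes of 0.28 and 0.67. Both calls were lost without any 1 DMSO library (limma, highest adjusted p 0.11) and under median-ratio scaling (adjusted p = 0.34 and 0.059; log2 fold change of THY1 0.09), and that of IL13RA1 also without sAKZ692 replicate 2 (0.052) and after quantile normalization (0.33, log2 fold change 0.27). Without sAKZ692 replicate 3, 2 genes of the list were lower. The high sum of replicate 3 was that of VIM, since the other 6 genes summed to 347.5, 355.8 and 352.1 TPM in the DMSO libraries and to 342.5, 334.3 and 368.7 TPM in the treated ones. Single markers went both ways in replicate 3. FN1 (fibronectin), which was not called (limma adjusted p = 0.15), was at its lowest there, at 13.4 TPM. THY1, IL13RA1 and TWIST1 were at their highest there, at 86.7, 4.69 and 259.7 TPM. In treated replicates 1 and 2 the sum lay below all DMSO libraries while PRPH lay above them, and the part of these markers in the PRPH value was not tested.

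The 7 genes correlated with each other over the 6 libraries at r between 0.824 (NEFM and PRPH) and 0.997 (NEFL and SCG2) on log2(TPM + 1). All of these correlations share the contrast between groups. The genes outside the set most like each member by the same measure were C20orf194 and RNF208 for NEFL, PPARGC1A and CCDC188 for NEFM, RPS6KL1 and RACK1 for PRPH, TCP11L2 and LGALS3BP for GAP43, ELMO1 and SH3BGRL2 for SCG2, MEIS3 and PRKCZ for CHGB, and CDKN1C and TRIM25 for ELAVL4. Their r lay between 0.9972 and 0.9996 over 6 libraries. RNF208 was close to NEFL in level too, with 12.9, 12.5 and 10.98 TPM in solvent and 33.7, 28.5 and 37.4 TPM in treated cells. PPARGC1A, the mitochondrial biogenesis coactivator, shared the evenness of NEFM, at 4.01, 3.99 and 4.40 TPM and at 9.46, 9.795 and 9.35 TPM.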

How the data were processed

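RNA of 6 libraries was sequenced as single-end reads, per the labels' protocols, and kallisto was used, per the submitters' processing notes. Neither its version nor the build, annotation or strand setting is given in the sources used here. Values were deposited as TPM in 1 table with a column per library, and all 6 columns were matched to sample titles. TPM keeps no read counts, so there are no counting intervals.

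The 9137 genes whose mean reached 1 TPM were compared on log2(TPM + 1) with limma 3.58.1 in R 4.3.3, with a mean-variance trend and Benjamini-Hochberg adjustment over all of them at a threshold of 0.05. A fold change on this scale understates that of low genes. The limma step was tested on simulated data in which a gene had the same spread in all libraries. Such data do not cover a library that stands apart, as sAKZ692 replicate 3 did.

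Members and lists were chosen with earlier results of these data known. The lists held 160 genes outside the set, 96 of them in the table. Named genes were the 7 members, up to 4 called genes per list by smallest adjusted p, 16 fixed by name (9 in the table) and, per member, the 2 genes of highest r. MAP2, KIF5C, SYT7, GAL, MARCKS, MARCKSL1, CELF2, NOVA2, PTBP1, NEUROD1, MYCN, TH, HAND1, DDC, SLC6A2, INSM1, CHRNA3, FN1 and TWIST1 fall outside this rule and were chosen after their values were seen. The result of the glial marker list is not reported here.

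Alternatives were pseudocounts of 0.1 and 0.5, no filter or a minimum of 5 TPM, median-ratio scaling, quantile normalization, limma without the trend or robust, leaving out each library in turn, and a replicate block. Promoter windows came from RefSeq (GRCh38.p14), and 3′ UTRs from GENCODE release 29, matched for 94.0% of tested genes.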

Additional observations from a re-analysis of the deposited data

How the results depend on the processing

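The direction of all 7 members was the same in all 15 alternatives, but they had been chosen for being higher. Their groups did not overlap, so leaving out 1 library could not reverse a direction. The filters, the limma options and the replicate block left each log2 fold change as it was. Over all alternatives the log2 fold changes of the members ranged over 1.27 to 1.53 for NEFL, 0.80 to 1.03 for NEFM, 1.76 to 3.11 for PRPH, 1.68 to 2.41 for GAP43, 2.42 to 2.68 for SCG2, 0.84 to 1.09 for CHGB and 0.37 to 0.66 for ELAVL4. Scaling moved the median log2 fold change of all genes from 0.14 to -0.03 under both median-ratio scaling and quantile normalization, and the percentage of calls that were higher from 73.9% to 41.5% and 47.5%.

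As deposited, 2204 genes were higher and 777 lower. Median-ratio scaling gave 1242 and 1754, quantile normalization 1073 and 1188, and leaving out a library 1217 to 3132 and 404 to 1321, the highest of each without sAKZ692 replicate 3. The replicate block gave 1863 and 636, and in the related lists it left 0 mesenchymal genes higher, 0 dense-core granule genes lower, 1 growth cone gene lower and 1 regulator lower. Same-numbered libraries deviated from their group means with r of 0.061, -0.025 and 0.042. With 3 libraries per group these deviations depend on each other, so they cannot decide whether same-numbered libraries were handled together. Libraries numbered 1 and 3, but not those numbered 2, correlated best with their own number.

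Dense-core granule genes called higher numbered 5 after quantile normalization and 5 to 10 without 1 library, and those lower 0 in limma without the trend and 0 to 1 without 1 library. Growth cone genes called higher numbered 6 after median-ratio scaling and 6 to 11 without 1 library, and those lower 5 after median-ratio scaling, 1 after quantile normalization, 1 in limma without the trend and 0 to 6 without 1 library. Filament genes called higher numbered 1 with a minimum of 5 TPM, 0 after quantile normalization and 0 to 2 without 1 library. RNA-binding genes called lower numbered 2 after median-ratio scaling and 1 to 2 without 1 library, and those higher 6 to 10 without 1 library.

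Noradrenergic genes called higher numbered 1 with no filter, after median-ratio scaling and in limma without the trend, and 1 to 4 without 1 library, and those lower 2 after median-ratio scaling, 1 after quantile normalization and 0 to 1 without 1 library. Mesenchymal genes called higher numbered 1 with a minimum of 5 TPM, 0 after median-ratio scaling, 1 after quantile normalization and 0 to 2 without 1 library, and those lower 1 after median-ratio scaling and 0 to 2 without 1 library. Regulators called lower numbered 1 with no filter, 1 with a minimum of 5 TPM, 4 after median-ratio scaling, 1 in limma without the trend and 0 to 4 without 1 library. VIM turned to a log2 fold change of -0.30 without sAKZ692 replicate 3, the library in which it was high, the highest value without 1 library being 0.38. Leaving out a library also lowers the number of samples. With a minimum of 5 TPM, SYNM, IL13RA1 and KLF4 fell below the filter and were not tested, so they dropped out of those counts. The cause of the other changes was not tested. Among the other genes named by the rule given above, 11 lost a call in at least 1 alternative. GAL, MARCKS, MARCKSL1 and NEUROD1, named outside that rule, lost theirs in some alternatives too.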
